A study of Oryza sativa with 4 samples.

Results

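The authors assembled transcripts from roots of the rice cultivars Sharbati and Lalat and listed, for each library, those that they counted as unannotated. All 1420 such transcripts of Sharbati root and all 5149 of Lalat root are described here, 6569 of the 15351 that the authors listed over 4 libraries. The others, 4345 in Sharbati grain and 4437 in Lalat grain, served only to show which root loci were assembled in grain as well. Membership followed from the authors' lists alone, and no expression value was used to choose a transcript.

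The study set root and developing grain of a cultivar rich in grain iron beside those of a poor one. Sharbati brown rice held 24.88 ppm iron and Lalat brown rice 7.80 ppm, per the labels. Both cultivars grew in pots of soil and farmyard manure in a net house, and both organs were taken 15 days after panicle emergence, with no treatment applied to either. Each of the 4 groups (Sharbati root, Lalat root, Sharbati grain and Lalat grain) is 1 paired-end poly(A) library with no replicate, and the labels do not say how many plants it holds. No difference below therefore has a replicate check, a test or a p-value, and cultivar, plant and library cannot be told apart. Intervals are exact 95% binomial intervals and cover counting error only. Levels are FPKM, fragment counts scaled by transcript length and by the mapped fragments of the library. The files give no read counts, so the depth behind a level is unknown.

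An assembler builds transcript models from spliced reads and compares them with a reference annotation. A model counts as unannotated when its exon chain is in no reference model, so it can be a gene in formerly empty sequence, a new isoform with another start, splice site or end, or a read-through across neighbours. Plant genes commonly give several isoforms through retained introns and alternative ends, and an assembler also returns fragments of incomplete or unspliced RNA.

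Few of the transcripts lay in sequence without an annotated gene, strand not considered. An annotated gene listed in at least 1 of the 4 libraries was overlapped by 1418 of the 1420 Sharbati root transcripts (99.9%) and by 5137 of the 5149 Lalat root transcripts (99.8%). They are called assembled transcripts below: models with identifiers of their own, at loci the annotation already held. Of those on exactly 1 gene, 75.9% in Sharbati root and 67.2% in Lalat root began and ended inside its span. A further 19.8% in Sharbati root and 28.5% in Lalat root ran past 1 end, and 4.27% in Sharbati root and 4.23% in Lalat root ran past both. The overhang was short, with a median of 132.5 bases in Sharbati root and 115 bases in Lalat root. In grain the models lay inside the gene less often, in 51.5% of cases in Sharbati grain and 51.3% in Lalat grain.

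Spans touching 2 or more genes made up 9.15% of the Sharbati root list and 8.88% of the Lalat root list. The longest are given after overlapping transcripts were joined, with FPKM summed and the best protein match named. The longest in Sharbati root was chr2:34075807-34155602, which crossed 7 genes at 9.86 FPKM and whose protein match was Cyclin-B1-2, a regulator of entry into mitosis. The next were the chr6:28401731-28451997 polyubiquitin locus, with 3 transcripts over 6 genes, and chr2:435869-483969, over 8 genes at 0.689 FPKM. In Lalat root the longest was chr3:28245429-28456412, over 18 genes, with a best match to the SET-domain histone methyltransferase ASHR1. Its 20.01 FPKM are the sum of 3 transcripts. Next was chr10:1897784-2057559, over 11 genes, where 3 transcripts summed to 25.1 FPKM and the best match was the disease resistance protein RPM1. The single transcript at chr1:15170597-15283073 crossed 6 genes at 17.4 FPKM, with a match to the glutathione S-transferase GSTF1. Coordinates are copied from the files; the sources used here name no genome build for them.

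Transcripts that touched no listed gene were few. The 12 of Lalat root had matches to regulators, receptor kinases and transporters. The most abundant was a G-protein gamma subunit model at chr3:24252864-24256981, with 23.2 FPKM. A pair of isoforms at chr4:30702497-30706229 matched the repressor MYB6, at 3.96 and 2.04 FPKM. These isoforms and the G-protein model lay within 1 kb of a listed gene, unlike the others. An aquaporin model, NIP3-2, stood at chr8:2989266-2991338 with 1.55 FPKM, and a MATE efflux carrier model at chr10:10259649-10262190 with 3.44 FPKM. Aquaporins carry water and small solutes across membranes, and MATE carriers export organic compounds. Single models matched AGL16 (1.34 FPKM), LOGL2 (1.67 FPKM), the auxin-induced protein 5NG4 (3.49 FPKM), CDPK34 (0.346 FPKM), WAK3 (0.405 FPKM), RBK2 (0.301 FPKM) and an LRR receptor kinase (0.444 FPKM). The 2 of Sharbati root, at 14.0 and 3.06 FPKM, had no protein match at an expectation value of 1e-05 or less.

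Transcripts whose spans overlapped were joined into loci, 1276 in Sharbati root and 4224 in Lalat root, which is 3.31 times as many. A single transcript made up 1147 of the Sharbati root loci and 3426 of the Lalat root loci. The others held 2 transcripts (115 loci in Sharbati root, 687 in Lalat root) or 3 and more (14 in Sharbati root, 111 in Lalat root). The models were alike in length, with a median genomic span of 4065.5 bases in Sharbati root and 4046 bases in Lalat root. They were spread over all 12 chromosomes, on 5.11% (chromosome 11) to 10.8% (chromosome 3) of the listed genes in Sharbati root and on 16.6% to 21.04% in Lalat root, with the same chromosomes at the ends.

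The lists differed in the quality of their protein matches. Every Lalat root transcript had a protein match at an expectation value of 1e-05 or less, and so did both grain lists. In Sharbati root 232 of 1420 transcripts (16.3%) exceeded that value, 94 of them exceeded 1, and the highest was 9.7. A match is named below only at 1e-05 or less, which 1064 of the 1276 Sharbati root loci had.

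The levels differed as well. The median assembled transcript had 1.55 FPKM in Sharbati root and 4.43 FPKM in Lalat root. The median locus, with its transcripts summed, had 1.67 FPKM in Sharbati root (95% interval of the median 1.57 to 1.77) and 5.68 FPKM in Lalat root (5.41 to 5.94). All values of a list added up to 6666 FPKM in Sharbati root and 88818 FPKM in Lalat root. At 20 FPKM or more there were 42 loci in Sharbati root and 730 in Lalat root. In whole roots, fewer cells of a type and less RNA per cell cannot be told apart.

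Set against the annotated gene of the same library, the Sharbati root list stood apart from the other 3. At loci on 1 gene, the ratio of assembled transcripts to gene had a median of 0.101 in Sharbati root (log2 -3.31, 1143 loci) and 0.647 in Lalat root (log2 -0.63, 3818 loci). Both grain lists had a median log2 ratio of -1.15. The most frequent log2 ratio, called the peak here, was -3.34 in Sharbati root, -0.18 in Lalat root, -0.59 in Sharbati grain and -0.66 in Lalat grain. Ratios spread widely around it, with quartiles of -4.30 and -2.82 in Sharbati root and of -1.84 and 0.21 in Lalat root. Within 0.25 of that peak lay 26.9% of the Sharbati root loci and 17.3% of the Lalat root loci. The assembled transcripts exceeded their own gene at 1.31% of loci in Sharbati root, against 31.5% in Lalat root, 16.8% in Sharbati grain and 18.3% in Lalat grain.

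**Figure D1:**
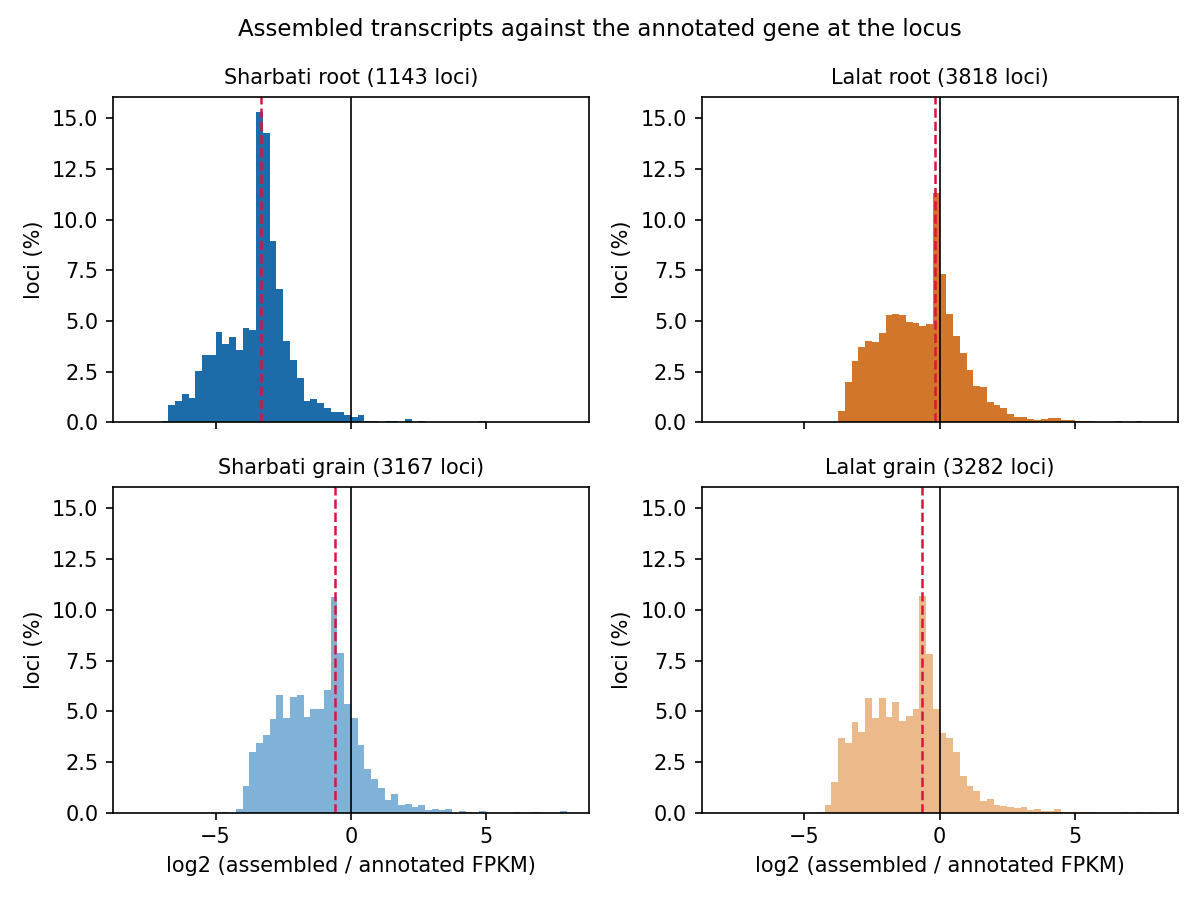
Ratio of the summed FPKM of assembled transcripts to that of the annotated gene at the same locus (horizontal axis, log2) as a share of loci (vertical axis, percent) in bins of 0.25 for the 4 libraries; the black line marks equality and the dashed line the most frequent ratio. The Sharbati root peak sits at -3.34, and those of Lalat root, Sharbati grain and Lalat grain at -0.18, -0.59 and -0.66.

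The peaks of the 2 root lists were 3.16 log2 units apart, an 8.94-fold offset, whereas those of the grain lists differed by 0.07. The median log2 ratios, -3.31 in Sharbati root and -0.63 in Lalat root, lay closer together, so an offset taken from the medians would be smaller. Levels are therefore given below as deposited, beside those of the annotated gene. Ratios between the roots are also given with the peak offset taken out, and scaled values rest on that choice. How the offset arose was not tested. Within each list, assembled and annotated levels moved together: across loci of 1 library, which share that library's depth, Spearman's rho was 0.64 in Sharbati root and 0.70 in Lalat root.

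At a minority of loci the assembled transcripts stood far higher against their gene than at the peak ratio. They stood 8-fold or more above it at 25 of 1143 loci in Sharbati root (2.19%) and at 73 of 3818 in Lalat root (1.91%). The locus of an RNA polymerase N subunit, LOC_Os12g07980, did so in both roots, with 50.8 FPKM assembled and 16.6 FPKM annotated in Sharbati root, and 406 FPKM assembled and 29.5 FPKM annotated in Lalat root. The ribosomal protein L38 locus, LOC_Os11g24610, gave 20.1 FPKM assembled and 4.55 FPKM annotated in Sharbati root, and 441 FPKM assembled and 49.7 FPKM annotated in Lalat root. At LOC_Os07g12170, an ADP-ribosylation factor gene whose product is a small GTPase of vesicle budding, Lalat root had 792 FPKM assembled against 28.6 FPKM annotated. These loci were picked after their values were seen.

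Genes that carried an assembled transcript were a share of 8.62% of the 15584 genes listed in Sharbati root (1344 genes) and 19.2% of the 23740 listed in Lalat root (4562 genes). In grain the shares were 15.6% in Sharbati and 16.3% in Lalat. The share depended on the level of the gene. Below 1 FPKM it was 0.548% in Sharbati root and 7.60% in Lalat root. Between 5 and 20 FPKM it was 11.4% in Sharbati root and 26.8% in Lalat root. At 100 FPKM or more it was 17.4% in Sharbati root and 12.2% in Lalat root. Of the 5 levels, this was the single one at which the Sharbati share was the higher.

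**Figure D2:**
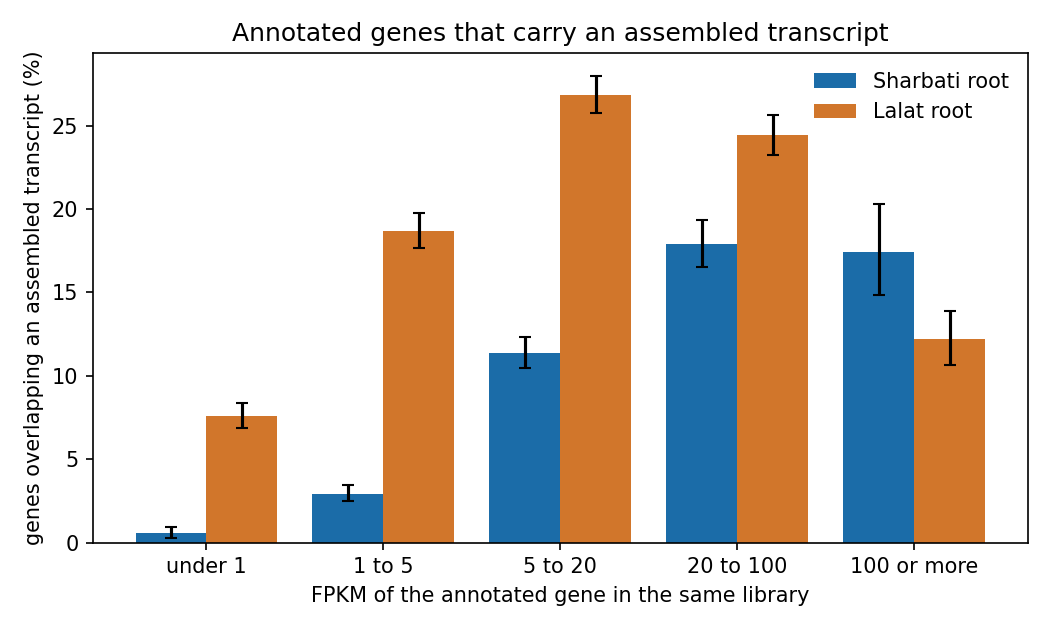
Share of annotated genes overlapping an assembled transcript (vertical axis, percent) by the FPKM of the gene in the same library (horizontal axis, 5 levels); bars are Sharbati root and Lalat root, and error bars are exact 95% binomial intervals. Sharbati root bars run between 0.548% and 17.9% and Lalat root bars between 7.60% and 26.8%.

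Gene classes, formed by words in the deposited gene descriptions, were covered unevenly. Transporter genes carried an assembled transcript in 12.6% of cases in Sharbati root (34 of 270, interval 8.88 to 17.2%) and in 27.4% in Lalat root (117 of 427, 23.2 to 31.9%). Kinase genes did so in 11.7% of cases in Sharbati root (90 of 770, 9.50 to 14.2%) and 27.2% in Lalat root (326 of 1197, 24.7 to 29.9%). Both classes were above the share of all genes in each root, and all 4 intervals lay above that share.

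Transcription factor genes were close to the whole, with 8.48% in Sharbati root (67 of 790) and 20.98% in Lalat root (257 of 1225). So were ribosomal protein genes, with 10.7% in Sharbati root (32 of 299) and 18.3% in Lalat root (59 of 323). Histone genes had 9.59% in Sharbati root (7 of 73) and 18.1% in Lalat root (19 of 105), and peroxidase genes 6.52% in Sharbati root (3 of 46) and 15.9% in Lalat root (18 of 113). Genes described as transposons or retrotransposons were below it, with 1.66% in Sharbati root (23 of 1383) and 10.1% in Lalat root (130 of 1290). Some metal carriers, YSL2, YSL5, YSL12 and YSL16, have a deposited description that reads transposon protein and so fall under that word. Genes with no described function had 6.70% in Sharbati root (184 of 2748) and 8.18% in Lalat root (427 of 5220). Among genes at 5 FPKM or more, the share of all genes was 14.2% in Sharbati root and 24.1% in Lalat root. At that level transposon genes were no longer well below it, with 12.1% in Sharbati root and 25.8% in Lalat root. Transporter genes, with 24.0% in Sharbati root and 32.4% in Lalat root, and kinase genes, with 19.1% in Sharbati root and 36.6% in Lalat root, were above it there too. Genes with no described function were below it, with 10.4% in Sharbati root and 9.73% in Lalat root.

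Few seed storage genes carried an assembled transcript. None of 26 prolamin or glutelin genes did in Sharbati root (interval 0 to 13.2%, which includes the share of all genes), and 1 of 40 did in Lalat root (2.50%, interval 0.0633 to 13.2%, below that share). Storage protein RNA itself was present in the root libraries: the 8 endosperm marker genes summed to 35.9 FPKM in Sharbati root, with GluD1 at 0, and to 2865 FPKM in Lalat root, with none at 0. The 6 root markers, transporters such as the silicon channel Lsi1 among them, summed to 308 FPKM in Sharbati root, with RCc3 at 0, and to 146 FPKM in Lalat root. No gene of either marker list carried an assembled transcript, against 8.62% (Sharbati root) and 19.2% (Lalat root) of all listed genes. With lists of 6 and 8 genes, their absence says little. The part of grain RNA in the longer Lalat list was not tested.

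The cultivars were then compared by position. Of the 1276 Sharbati root loci, 545 overlapped a Lalat root locus (42.7%, interval 39.98 to 45.5%). Of the 4224 Lalat root loci, 541 overlapped a Sharbati root locus (12.8%, 11.8 to 13.9%). The grain lists, which are nearly equal in length, overlapped by 54.4% of the Sharbati list and 52.9% of the Lalat list. Sharbati root loci with a protein match at 1e-05 or less overlapped a Lalat root locus in 48.9% of cases (520 of 1064), and those without in 11.8% (25 of 212).

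Level mattered on the Lalat side. Lalat root loci below 1 FPKM had a Sharbati partner in 1.09% of cases (4 of 366), those of 5 to 20 FPKM in 13.05% (202 of 1548) and those of 20 FPKM or more in 34.1% (249 of 730). On the Sharbati side the share ran between 38.6% and 54.8% over the same deposited levels, with no steady order and overlapping intervals. Given the 8.94-fold offset between the lists, equal deposited levels need not be alike on the 2 sides.

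**Figure D3:**
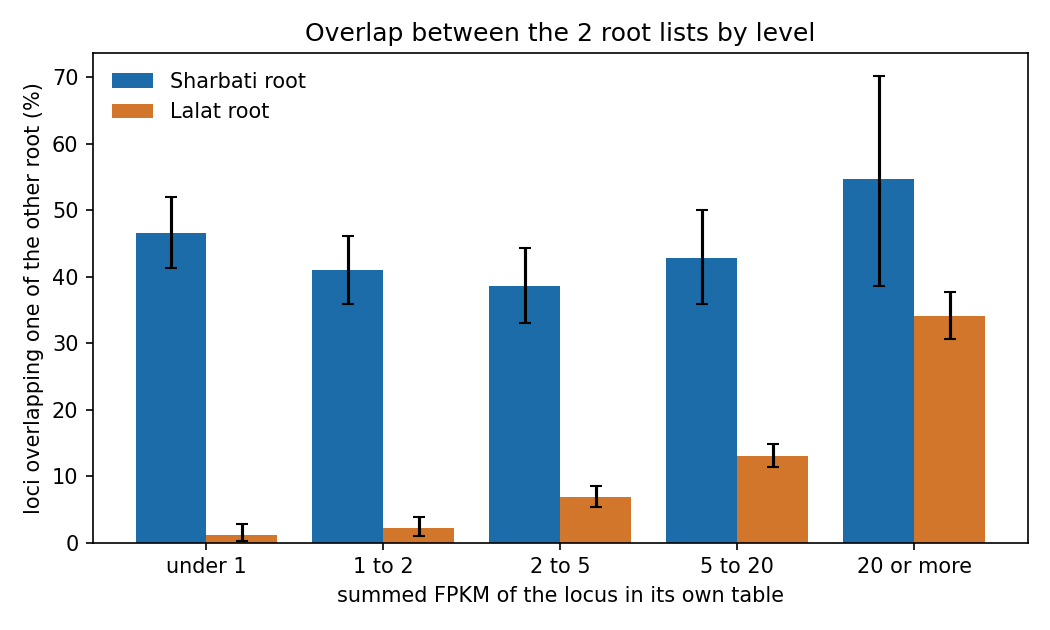
Share of the loci of each root list that overlap a locus of the other list (vertical axis, percent). Bars are grouped by the summed FPKM of the locus in its own list, as deposited (horizontal axis, 5 levels). Error bars are exact 95% binomial intervals. The Lalat root share climbs between 1.09% and 34.1%, and the Sharbati root share lies between 38.6% and 54.8%.

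Overlapping loci formed 537 loci shared by both roots. Many held the same kind of transcript: at 445 of them (82.9%) a transcript of each root matched the same protein. So it was at 441 of the 515 loci (85.6%) where both matches were at 1e-05 or less. At a locus of several transcripts, that protein need not be the best match of the locus. The models themselves were less alike, since both ends lay within 50 bases of each other at only 127 loci (23.6%).

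At these 537 loci the deposited values were lower in Sharbati root almost throughout. The median was 1.56 FPKM in Sharbati root and 16.9 FPKM in Lalat root, and the median log2 ratio of Sharbati over Lalat, with 1 FPKM added to both, was -2.75 (5th to 95th percentile -5.03 to -0.51). Sharbati root was at least 2-fold lower at 502 loci (93.5%) and at least 2-fold higher at 1 (0.186%). Among 13653 annotated root genes the same call was made lower in Sharbati for 51.3% and higher for 7.42%. The annotated genes at the shared loci had a median log2 ratio of -0.81, with 205 of 456 at least 2-fold lower in Sharbati root and 13 at least 2-fold higher. Over the 12071 annotated genes at 1 FPKM or more in both roots the median was -0.999. That median is of the plain ratio, with nothing added, so it is not on quite the same measure.

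With each list scaled by its own peak ratio, the median of the shared loci moved to -0.27. Then 158 loci were lower by 2-fold or more in Sharbati root and 119 higher. The log2 ratios of assembled transcripts and of their annotated genes had a Spearman's rho of 0.42 across 456 loci, which share the same pair of libraries. The count of lower loci thus depended on the scale given to the Sharbati list.

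**Figure D4:**
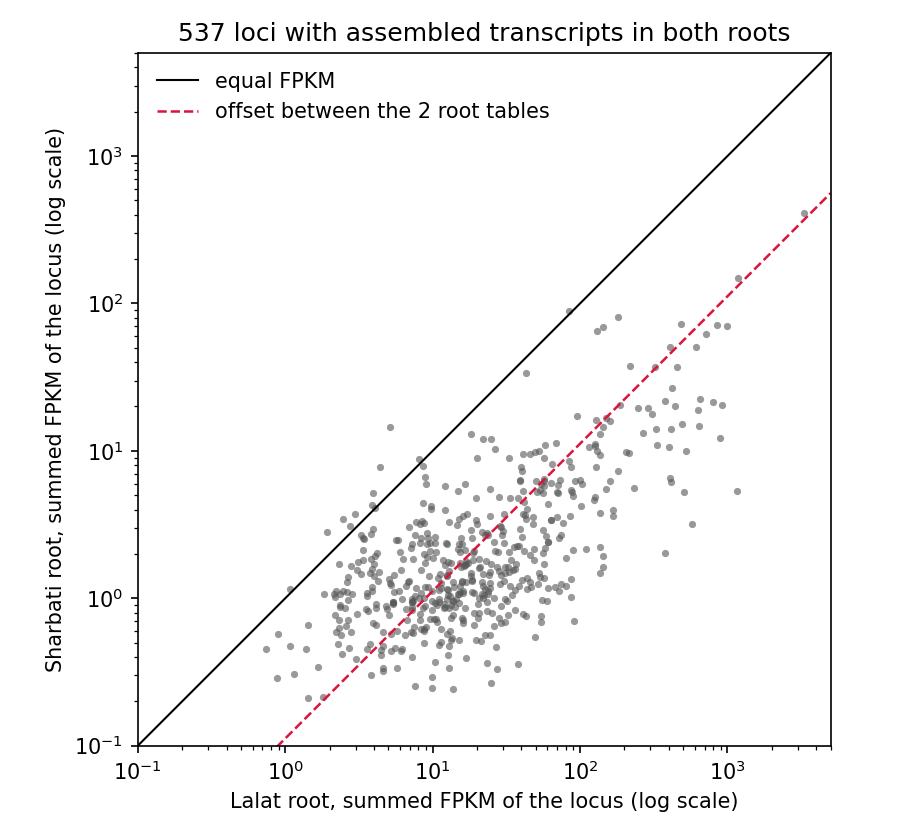
Summed FPKM of the 537 shared loci in Sharbati root (vertical axis, log scale) against Lalat root (horizontal axis, log scale), 1 point per locus; the solid line is equality and the dashed line the 8.94-fold offset between the lists. All but 12 points lie below equality, and points lie on both sides of the dashed line.

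Ribosomal proteins had the lowest median ratio of the 7 classes that were formed by words in the protein match. The 24 shared loci with a match to a 40S or 60S subunit protein had 1.15 to 22.5 FPKM in Sharbati root (median 10.3) and 39.3 to 924 FPKM in Lalat root (median 288). Their median log2 ratio was -4.79 as deposited and -1.79 after scaling, against -2.75 and -0.27 over all shared loci. The 19 annotated genes among them that were above 0 in both roots had a median of -2.00, against -0.81 for all. Ribosomal protein genes belong to families of close copies, and how the authors' counting split reads between copies is not stated.

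The other classes lay nearer to the whole. After scaling, the median log2 ratio was -0.22 for 29 loci matching ubiquitin or proteasome proteins, -0.85 for 67 loci matching kinases or phosphatases and -0.14 for 32 loci matching transcription regulators. It was -0.05 for 21 transporter loci, -0.13 for 17 loci of splicing and RNA-binding proteins and -0.77 for 10 loci of translation factors. These words were chosen after the matches were seen.

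Of the 10 shared loci with the highest mean level, 4 matched ribosomal proteins. The locus of Polyubiquitin 4, a precursor of the ubiquitin that tags proteins for breakdown, had 409 FPKM in Sharbati root and 3289 FPKM in Lalat root. LTI6B (LOC_Os05g04700), a small hydrophobic membrane protein, had 150 FPKM in Sharbati root and 1180 FPKM in Lalat root. Its annotated gene was near equal, with 231 FPKM in Sharbati root and 199.7 FPKM in Lalat root. Both loci lay on the offset between the lists, with scaled log2 ratios of 0.15 and 0.18.

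A pair of metal-binding proteins followed. HIPP26 (LOC_Os02g32814), a heavy metal-associated protein with a lipid anchor, had 70.0 FPKM in Sharbati root and 995 FPKM in Lalat root, and its gene 294 FPKM in Sharbati root and 702 FPKM in Lalat root. The match to ATOX1 (LOC_Os08g10480), a copper chaperone known from human, had 71.3 FPKM in Sharbati root and 855 FPKM in Lalat root, and its gene 370 FPKM in Sharbati root and 614 FPKM in Lalat root. In both cases gene and assembled transcripts were lower in Sharbati root. Enolase (LOC_Os10g08550), a step of glycolysis, had 62.2 FPKM in Sharbati root and 715 FPKM in Lalat root.

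The remaining loci of the 10 were farther from the offset. Copper methylamine oxidase (LOC_Os04g40040), which oxidises primary amines, had 5.37 FPKM in Sharbati root and 1158 FPKM in Lalat root. Its annotated gene had 51.7 FPKM in Sharbati root and 423 FPKM in Lalat root. The ribosomal proteins S21 (LOC_Os03g22460), S23 (LOC_Os01g61814), S29 (LOC_Os12g32380) and L37a (LOC_Os01g48770) had 20.4, 12.2, 21.5 and 22.5 FPKM in Sharbati root, against 924, 894, 797 and 646 FPKM in Lalat root. At S29 the annotated gene ran the other way, with 62.1 FPKM in Sharbati root and 41.8 FPKM in Lalat root.

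**Figure D5:**
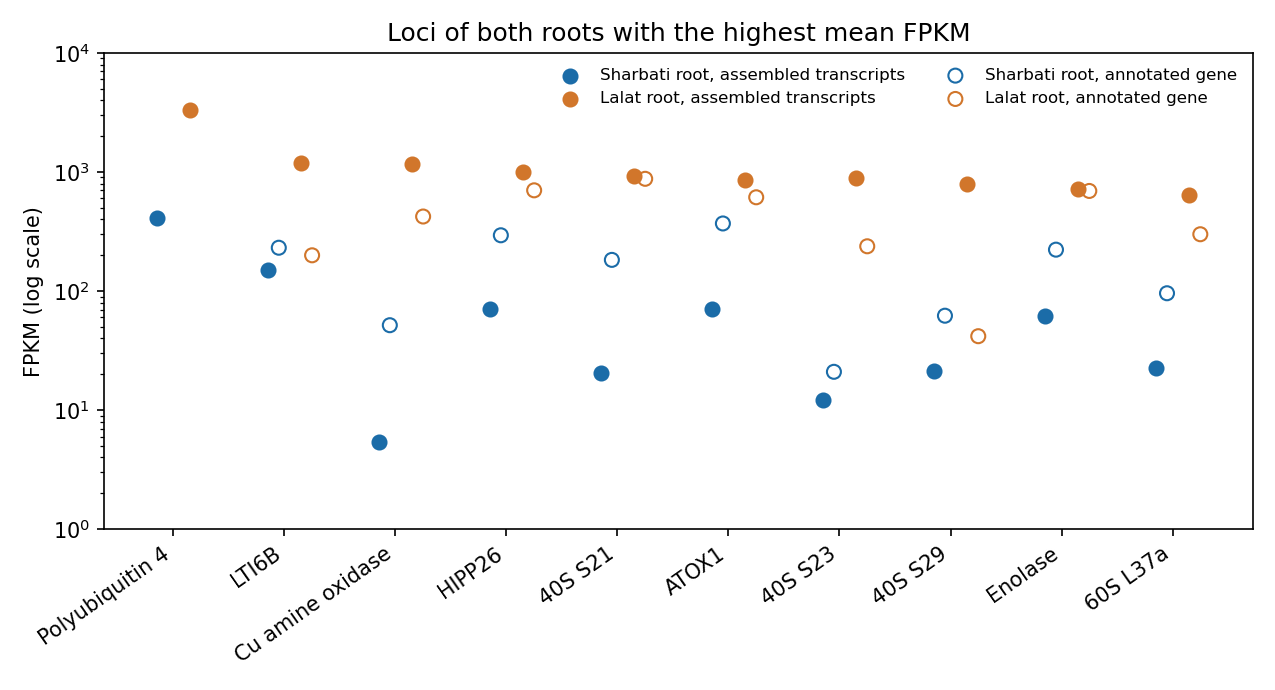
FPKM (vertical axis, log scale) of the 10 shared loci with the highest mean, named by protein match; filled circles are the summed assembled transcripts and open circles the annotated gene, in Sharbati root and Lalat root. The polyubiquitin locus spans 6 genes and has no open circles; every filled Sharbati root circle lies below the filled Lalat root circle.

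Among the 247 shared loci at 20 FPKM or more in 1 library, the highest ratio was that of RPABC4 (LOC_Os05g05980), a subunit common to the nuclear RNA polymerases. It had 88.9 FPKM in Sharbati root and 84.5 FPKM in Lalat root, while its annotated gene was listed at 0 in Sharbati root and at 0.129 FPKM in Lalat root. The assembled value thus stood far above the annotated one at that locus in both roots. The next were a reticulon of the endoplasmic reticulum (LOC_Os06g30750) with 33.7 FPKM in Sharbati root and 42.7 FPKM in Lalat root, and an LRR receptor kinase (LOC_Os01g60280) with 12.02 FPKM in Sharbati root and 22.1 FPKM in Lalat root. ERF073, of the ethylene-responsive factor family (LOC_Os03g08460), had 12.1 FPKM in Sharbati root and 24.9 FPKM in Lalat root. The ubiquitin-conjugating enzyme UBC36 (LOC_Os01g48280) had 65.1 FPKM in Sharbati root and 131 FPKM in Lalat root. Their annotated genes were near equal for the reticulon (254 FPKM in Sharbati root, 226 FPKM in Lalat root) and UBC36 (463 FPKM in Sharbati root, 515 FPKM in Lalat root). They were lower in Sharbati root for ERF073 (63.4 FPKM in Sharbati root, 175 FPKM in Lalat root) and the LRR receptor kinase (54.1 FPKM in Sharbati root, 81.2 FPKM in Lalat root).

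The lowest ratio was that of copper methylamine oxidase, with a log2 of -7.51, and that of metallothionein 2C (LOC_Os05g02070) was -7.10. Their scaled log2 ratios were -4.59 and -4.33. Metallothioneins are small cysteine-rich proteins that bind copper and zinc. This one had 3.20 FPKM in Sharbati root and 577 FPKM in Lalat root, and its annotated gene 32.8 FPKM in Sharbati root and 616 FPKM in Lalat root, so both measures were low in Sharbati. An aldehyde dehydrogenase of family 7 (LOC_Os09g26880), with a log2 ratio of -6.97 and a scaled one of -4.38, had 2.01 FPKM in Sharbati root and 376 FPKM in Lalat root, with 82.1 FPKM annotated in Sharbati root and 236 FPKM in Lalat root. Ribosomal protein L39 (LOC_Os06g08320) had 5.27 FPKM in Sharbati root and 508 FPKM in Lalat root. Its gene was listed at 0 in Sharbati root, against 2663 FPKM in Lalat root.

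Only 12 of the 537 shared loci were higher in Sharbati root as deposited. Those named here besides RPABC4 were picked after their values were seen. An NB-ARC resistance gene locus (LOC_Os11g11990) had 14.5 FPKM in Sharbati root and 5.11 FPKM in Lalat root, and was the single one past 2-fold. The locus matching YSL13, of the family that moves metals bound to nicotianamine, had 3.45 FPKM in Sharbati root and 2.47 FPKM in Lalat root. The models differ in extent there, with a span of 524 bases in Sharbati root and 4628 bases in Lalat root. A G-protein alpha subunit locus (LOC_Os06g02130) had 3.75 FPKM in Sharbati root and 2.99 FPKM in Lalat root. The ABC transporter locus LOC_Os06g36090 had 8.79 FPKM in Sharbati root and 8.13 FPKM in Lalat root.

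Loci of Sharbati root with no Lalat partner numbered 731. The highest was LOC_Os06g47230, a coiled-coil domain gene, with 216 FPKM assembled and no protein match at 1e-05 or less. Its annotated gene was abundant in both roots, with 7896 FPKM in Sharbati root and 10272 FPKM in Lalat root. LOC_Os07g02340, whose gene had 2570 FPKM in Sharbati root and 1921 FPKM in Lalat root, had 207 FPKM assembled. Next came an ADP-ribosylation factor gene (LOC_Os05g41060) with 196 FPKM, the B12D gene (LOC_Os06g13680) with 185 FPKM and the 4-gene span chr2:22572306-22589654 with 177 FPKM. The annotated ADP-ribosylation factor gene stood at 1286 FPKM in Sharbati root and 1289 FPKM in Lalat root, and the B12D gene at 1311 FPKM in Sharbati root and 1191 FPKM in Lalat root. The 4 single-gene loci among these 5 thus sat on genes that were abundant in both roots.

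Loci of Lalat root with no Sharbati partner numbered 3683. A second polyubiquitin locus (LOC_Os02g06640) led with 2042 FPKM assembled, on a gene with 1187 FPKM in Sharbati root and 2121 FPKM in Lalat root. The chr11:26511025-26540460 locus, over the gene of the translationally controlled tumor protein and a pentatricopeptide gene, had 2007 FPKM. TSJT1 (LOC_Os04g58280) had 1389 FPKM, on a gene with 687 FPKM in Sharbati root and 1365 FPKM in Lalat root. The ADP-ribosylation factor locus LOC_Os07g12170 had 792 FPKM. The locus of the ubiquitin-conjugating enzyme UBC2 at chr3:32930394-32935407 had 538 FPKM.

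Iron and zinc genes were then read from a list of 24, of which 23 were listed in at least 1 library. An assembled transcript overlapped 2 of the 18 listed in Sharbati root (11.1%, against 8.62% of all listed genes) and 9 of the 21 listed in Lalat root (42.9%, against 19.2%). No gene of the list had one in both roots, but with only 2 in Sharbati root this says little about the list. Over all loci, 42.7% of those in Sharbati root and 12.8% of those in Lalat root had a partner in the other root. Among regulators, Lalat root had assembled transcripts at IRO2, a bHLH activator of iron uptake genes, with 8.31 FPKM at chr1:41972021-41977988, and at IRO3, a bHLH repressor, with 28.7 FPKM at chr3:15001090-15002205. It also had them at IDEF1, a transcription factor of the iron deficiency response, with 12.4 FPKM, and at HRZ2, a ubiquitin ligase that restrains it, with 4.69 FPKM. The annotated IRO2 gene had 4.30 FPKM in Sharbati root and 16.4 FPKM in Lalat root, and IRO3 15.2 FPKM in Sharbati root and 30.2 FPKM in Lalat root. At IDEF1 the annotated values were 36.6 FPKM in Sharbati root and 92.9 FPKM in Lalat root.

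Among transporters, Lalat root had 6.07 FPKM assembled at HMA2, a pump for zinc and cadmium, at chr6:29479666-29480905. The annotated gene had 7.03 FPKM in Sharbati root and 2.02 FPKM in Lalat root, so the assembled value was above it in Lalat root. YSL2, which moves iron and manganese bound to nicotianamine, had 0.717 FPKM assembled in Lalat root, and MIT, the mitochondrial iron importer, 1.52 FPKM. FRDL1, which releases citrate for iron movement in the xylem, had 0.897 FPKM assembled in Sharbati root. In Lalat root a locus within 1 kb of FRDL1, with 7.09 FPKM, matched an alpha-glucosidase instead.

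For synthesis and storage, DMAS1, the last enzyme of phytosiderophore synthesis, had 5.83 FPKM assembled in Lalat root. Ferritin stores iron, and the near-identical genes FER1 and FER2 cannot be told apart with certainty. A model lay on FER1 in Sharbati root, with 0.965 FPKM, and on FER2 in Lalat root, with 26.1 FPKM. An assembled transcript lay on 6 of the 20 genes of the list that Sharbati grain held (30.0%, against 15.6% of all its genes) and on 6 of the 22 that Lalat grain held (27.3%, against 16.3%).

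By protein match rather than by list, 8 Sharbati root loci (0.627% of 1276) and 26 Lalat root loci (0.616% of 4224) belonged to metal-handling proteins. Of these, 6 of the 8 and 6 of the 26 were shared, where the shares over all loci are 42.7% for Sharbati root and 12.8% for Lalat root, as given above. The matching words were chosen with the matches in view. The shared ones include 3 metallothioneins. Metallothionein 3A (LOC_Os01g10400) had 80.8 FPKM in Sharbati root and 182 FPKM in Lalat root, and its gene 1347 FPKM in Sharbati root and 92.4 FPKM in Lalat root. Metallothionein 4C (LOC_Os12g38300) had 16.8 FPKM in Sharbati root and 149 FPKM in Lalat root, with 81.1 FPKM annotated in Sharbati root and 31.6 FPKM in Lalat root. With each list scaled by its peak ratio, the assembled values became 816 FPKM in Sharbati root and 206 FPKM in Lalat root for metallothionein 3A, higher in Sharbati like its gene. For 4C they became 169 FPKM in Sharbati root and 169 FPKM in Lalat root, and for 2C 32.3 FPKM in Sharbati root and 652 FPKM in Lalat root.

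The Lalat root loci with no Sharbati partner in this class were mostly carriers. YSL5, YSL12 and YSL16 had 5.12, 21.8 and 5.56 FPKM. NRAMP-type metal transporters had 4.28 FPKM at LOC_Os01g31870 and 41.8 FPKM at LOC_Os06g46310. Zinc transporters of the ZIP family had 1.26 FPKM at LOC_Os04g52310, 9.21 FPKM at LOC_Os05g07210, 1.77 FPKM at LOC_Os08g01030 and 5.13 FPKM at LOC_Os08g10630. Several of these genes were listed at 0 in Sharbati root, YSL16 (9.56 FPKM annotated in Lalat root) and LOC_Os08g10630 (15.1 FPKM annotated in Lalat root) among them.

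Root loci were finally set beside the grain lists. Of the Sharbati root loci, 36.9% overlapped a Sharbati grain locus and 52.4% overlapped none in either grain. Of the Lalat root loci, 41.7% overlapped a Lalat grain locus and 45.5% overlapped none. Loci of both roots were in at least 1 grain list in 67.2% of cases (361 of 537) and in both in 44.7% (240 of 537). Those of Sharbati root alone were in a grain list in 33.5% of cases (245 of 731) and those of Lalat root alone in 52.7% (1941 of 3683). A locus assembled in both roots was thus more often in a grain list than one of either root alone. These groups are not alike in make-up. A shared locus takes the joint span of both roots, which makes an overlap easier. Matches above 1e-05, absent from both grain lists, were mostly at Sharbati root loci without a Lalat partner. How far this sets the shares apart was not tested.

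Of those 10 shared loci with the highest mean, 8 had a locus in both grain lists, against 240 of the 537 shared loci (44.7%). The S21 locus had 20.4 FPKM in Sharbati root and 924 FPKM in Lalat root, and 320 FPKM in Sharbati grain and 242 FPKM in Lalat grain. The S23 locus had 12.2 FPKM in Sharbati root and 894 FPKM in Lalat root, and 303 FPKM in Sharbati grain and 278 FPKM in Lalat grain. RPABC4 had 25.5 FPKM in Sharbati grain and 19.0 FPKM in Lalat grain. Among loci in neither grain list, looked up after the values were seen, the highest of Lalat root alone were the ADP-ribosylation factor LOC_Os07g12170, peroxidase 12 with 507 FPKM, calmodulin-3 (LOC_Os01g17190) with 373 FPKM, ribosomal protein L44 with 345 FPKM and the lignin pathway enzyme cinnamate 4-hydroxylase (LOC_Os05g25640) with 309 FPKM. Those of Sharbati root alone included S-adenosylmethionine decarboxylase of polyamine synthesis with 31.3 FPKM, a proteasome subunit (LOC_Os03g63430) with 21.8 FPKM and a serine incorporator (LOC_Os02g54990) with 20.02 FPKM.

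A run of genes on chromosome 12 for products that mitochondria encode, listed with earlier results known, LOC_Os12g33958 to LOC_Os12g34124, held 1 locus in Sharbati root and none in Lalat root. The Sharbati root locus lay on LOC_Os12g33958, a subunit of respiratory complex I, with 14.1 FPKM assembled. Its annotated gene had 380 FPKM in Sharbati root and 0.576 FPKM in Lalat root. The same gene carried a model in Sharbati grain, with 0.817 FPKM, and in Lalat grain, with 0.579 FPKM.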

How the data were processed

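Poly(A) RNA of 4 rice libraries was sequenced as read pairs, 1 library for each cultivar and organ. The submitters' processing notes name Cufflinks 1.3.0, Cuffdiff, TopHat 1.3.3 and Bowtie 0.12.9. The sources used here name no genome build. The deposited FPKM values, the authors' own, cover annotated transcripts, with the cultivars of an organ side by side, and assembled transcripts in 1 table per library. Each assembled transcript has a best protein match and its expectation value, a score the authors deposited, with no search program given in the sources used here. The authors' deposited p-values compare 2 libraries and were not used. Tables were processed separately, so levels across tables carry that limit.

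Transcripts were joined into loci where spans overlapped by at least 1 base, strand ignored, and FPKM were summed (Python 3.11.15, pandas 2.3.3, numpy 2.4.6, scipy 1.17.1, matplotlib 3.10.9). A gene's FPKM is the sum of the distinct values of its transcripts, and its span is that of the annotated tables. Genes are those listed above 0 in at least 1 library. Log2 ratios between cultivars use FPKM + 1, except the median over 12071 annotated genes, which uses the plain ratio. The 2-fold calls use the plain ratio. The most frequent ratio is the centre of the densest window of 0.1 log2. The steps were tested on simulated tables. Loci named are the 10 shared loci with the highest mean, the 5 highest and 5 lowest ratios at 20 FPKM or more, the 5 highest of each root without partner, the 3 longest of each root and those at iron or zinc genes or in a listed run of chromosome 12; others are said to be chosen later. The members and lists were chosen with earlier results of these data known. No sequences are printed.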

Additional observations from a re-analysis of the deposited data

Results flagged for a closer look

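The polyubiquitin locus on chromosome 6, a span over 6 genes, had summed levels that ran opposite ways in the 2 organs as deposited. Its log2 ratio of Sharbati over Lalat was 4.66 in grain, with 154 FPKM in Sharbati grain and 5.13 FPKM in Lalat grain, and -3.01 in root, with 409 FPKM in Sharbati root and 3289 FPKM in Lalat root. The root ratio lies on the offset between the root lists, and it was 0.15 after scaling. The root sums hold 3 transcripts in Sharbati root and 1 in Lalat root. Which gene of the span each grain transcript matched is not given here. With 1 library per group the difference between organs was not tested.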

How the results depend on the processing

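With 1 library per group, no replicate could be left out. No paired analysis was possible because each group holds 1 library. In all, 52 values were recomputed. Only the median log2 ratio of shared loci has a sign that could change, and it stayed negative at every setting. Counts within 1.5 times the reported one, and shares and medians within their 95% interval, were held to be unmoved, which left 28 that moved. The share of Sharbati root loci with a Lalat partner (42.7%) was 32.2% when 50% of both spans had to overlap, 47.1% within 1 kb, 48.9% among loci with a match at 1e-05 or less and 9.95% with both ends within 50 bases. The Lalat share (12.8%) was 9.73%, 14.6% and 3.01% under the first, second and last of these. It was 9.85% with loci of 1 FPKM or more and 4.65% with 5 FPKM or more in both lists. The share in grain of the same cultivar was 28.4% in Sharbati root and 34.3% in Lalat root at the stricter overlap, and 47.6% in Sharbati root and 54.5% in Lalat root with either grain; with matches at 1e-05 or less it was 42.7% in Sharbati root. All Sharbati root loci (100%) lay within 5 kb of a gene. Above 1 FPKM the median locus had 2.40 FPKM in Sharbati root and 6.61 FPKM in Lalat root. The median log2 ratio of shared loci was -3.35 with 0.1 FPKM added, -1.71 with 5 FPKM added, -3.03 among 451 loci at 5 FPKM or more, -2.45 with matching ends, -2.07 scaled by the median annotated ratio and -0.27 scaled by the peak ratios. The 502 lower loci became 158 under the last scaling. The single higher locus became 0 at the stricter overlap and with 5 FPKM added, 12 under the median scaling and 119 under the peak scaling. The cause of these moves was not tested. Matching ends, peak scaling and the match limit were chosen after seeing the data. The files give no counts, so what depth limits is unknown.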
